A study of Mus musculus with 6 samples.

Results

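The mitochondrial ribosomal protein genes were read from every probe set of the array whose single annotated symbol begins with Mrpl or Mrps followed by a digit, which gave 127 of 22626 non-control probe sets and 74 of 12393 named genes. A probe set, the group of short oligonucleotides that reads a transcript on this array, counted as measured when its signal was over 53.5 on at least 2 arrays; this floor is the 40th percentile of the non-control signals. This left 109 of 14906 measured probe sets, which read 73 genes. Of these, 90 were above the floor on all 6 arrays, 16 on 3 to 5 and 3 on 2. The other 18 stayed out of every count below: 17 were under the floor on all arrays and 1 was above it on 1 array, and Mrpl38 was the only gene left without a measured probe set.

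Mitochondria carry their own ribosomes, which translate the few messages of the mitochondrial genome into core subunits of the respiratory chain and ATP synthase. The ribosomal RNAs are made inside the organelle, while the proteins are encoded in the nucleus, made in the cytosol and imported. The large subunit joins amino acids and holds the tunnel through which the new chain leaves, and the small subunit binds the message and reads its codons. Some of the proteins have counterparts in bacterial ribosomes and others do not. In dendritic cells (DC), the cells that capture antigen and display it to T cells, mitochondrial respiration is known to be remodelled during activation.

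The samples were mouse DC grown from bone marrow of CAR-transgenic animals. CAR is the receptor through which adenovirus enters cells, and the promoter that drives it here is not given in the sources used. The growth protocol names marrow of 1 female mouse, 13 weeks old, differentiated for 7 days with GM-CSF at 250 U/ml. Each of the 6 groups has 1 Affymetrix MOE430A array. The AdIkBa-SR+TNFa and AdIkBa-SR groups carried an adenovirus with the super-repressor (SR) of NF-kB, a form of the inhibitor IkBa that resists breakdown, with and without the cytokine TNFa. The AdOVA+TNFa and AdOVA groups carried the control adenovirus, also with and without TNFa. The TNFa group and the untreated group received no virus. Virus was given at 1500 particles per cell for 2 h, 18 h of culture followed, and TNFa was given at 50 ng/ml for the last 4 h. No mock transduction is recorded for the groups without virus, so virus and the handling of transduction cannot be told apart.

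On the 6 arrays, 9 to 12 of 12 DC markers were above the floor, and 0 of 4 T cell markers were. The median signal over all probe sets ran from 74.4 to 88.5, and the share above the floor from 57.9% to 63.4%. The arrays fall into 2 fluidics rounds by the stamp in the fluidics section of their headers: AdIkBa-SR+TNFa, AdIkBa-SR and AdOVA+TNFa were in round 2, and AdOVA, TNFa and untreated in round 1. The AdIkBa-SR array was washed under another protocol. The AdOVA+TNFa array had a signal of 2601 on a probe set for 18S ribosomal RNA, where the others had 120 to 537. With 1 array per group, single pairs carry no test. The p-values below come from a limma fit of all 6 arrays. It leaves 1 residual degree of freedom, the gap between the TNFa response of virus-free cells and that of AdOVA cells. Limma joins this gap with a trend of spread on signal over all measured probe sets, which carries 17.4 prior degrees of freedom. The spread used for a probe set, in its SE, p-value and interval, is thus mostly borrowed from the other probe sets. Whether the groups were separate cultures is not stated, so this spread may be technical.

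As a family, the members were brightest on the arrays of untreated and AdIkBa-SR cells and dimmest on the AdOVA+TNFa array. The median signal of the 109 probe sets was 195 with AdIkBa-SR+TNFa, 213 with AdIkBa-SR, 129 with AdOVA+TNFa, 167 with AdOVA, 169 with TNFa and 216 untreated. The AdOVA+TNFa array gave the lowest reading of 59 members (54.1%), against 16.3% of all measured probe sets. The untreated array gave the highest reading of 42 members (38.5%), against 12.4% of all. AdOVA+TNFa cells were lower than untreated cells for 96 of 109 members, with a median log2 difference of -0.73, where all measured probe sets had a median of 0.10.

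**Figure D1:**
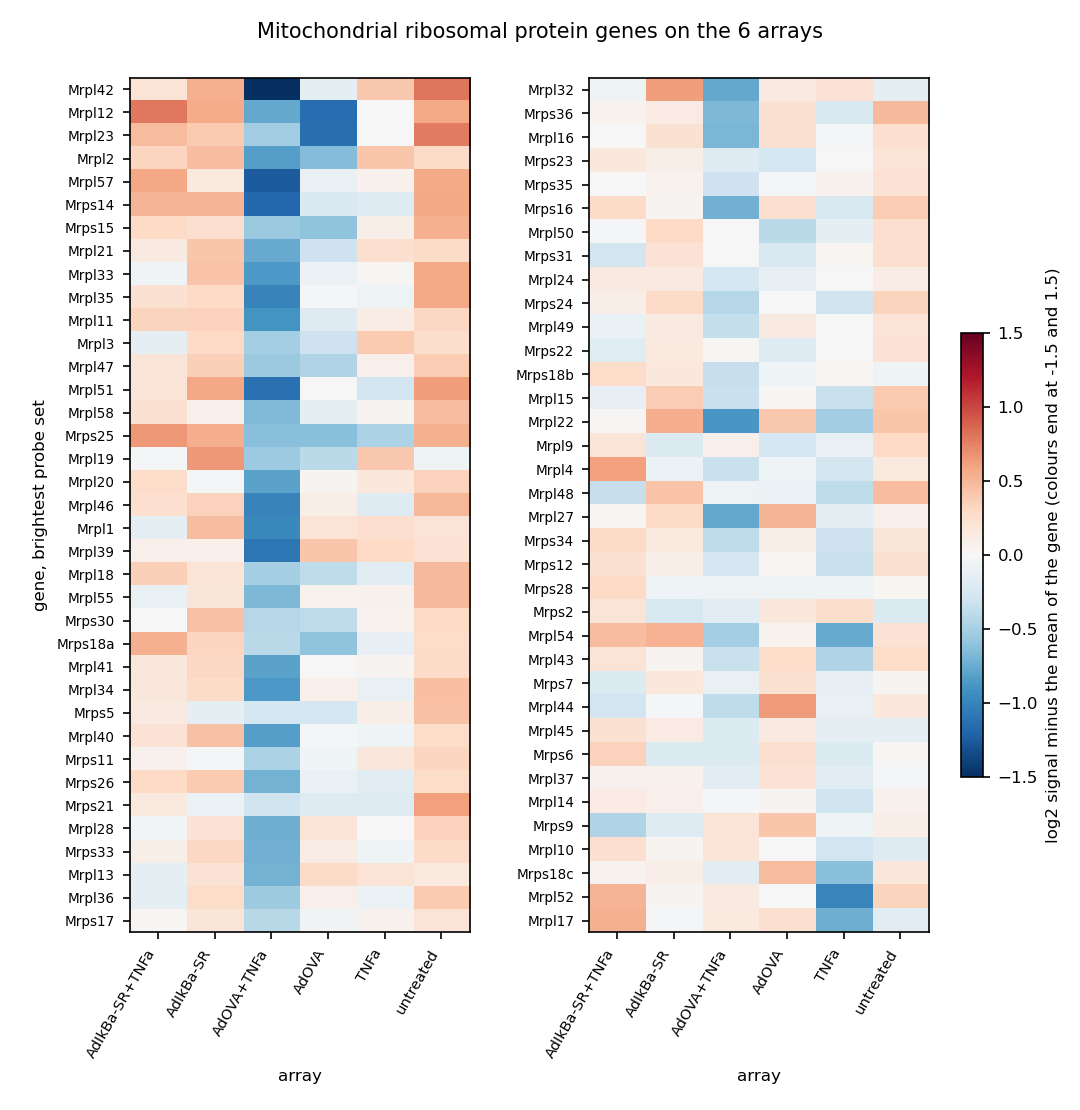
Heat map of the 73 measured genes, each read from its brightest probe set, on the 6 arrays (1 array per group). Colour gives the log2 signal, floored at 53.5, minus the gene's mean over the arrays. Genes run from the lowest to the highest fitted AdOVA difference, first down the left panel and then down the right. The AdOVA+TNFa column is blue for most genes of the left panel, which follows in part from this order of the genes.

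The probe sets with the highest signals included Mrpl27 and Mrpl13, proteins of the large subunit with bacterial counterparts. Mrpl27 had signals of 765 with AdIkBa-SR+TNFa, 919 with AdIkBa-SR, 442 with AdOVA+TNFa, 1069 with AdOVA, 683 with TNFa and 793 untreated. Mrpl13 had 645 with AdIkBa-SR+TNFa, 828 with AdIkBa-SR, 438 with AdOVA+TNFa, 870 with AdOVA, 820 with TNFa and 789 untreated. Both were lowest on the AdOVA+TNFa array, and neither was called in any comparison. Mrpl45, a large-subunit protein at the inner membrane, varied less, with 567 with AdIkBa-SR+TNFa, 530 with AdIkBa-SR, 422 with AdOVA+TNFa, 535 with AdOVA, 439 with TNFa and 442 untreated.

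Sequences upstream of the start sites are shown for 3 genes, chosen after their values were seen: Mrpl27, with some of the highest signals, Mrpl17, which had the largest fitted AdOVA value of the family, and Mrpl42, which had the lowest. They are RefSeq sequences of build GRCm38.p6, the 250 bases before the start, written 5′ to 3′ on the strand of the gene. Mrpl27 lies on the plus strand (chr11:94653541-94653790), Mrpl17 on the minus strand (chr7:105811088-105811337) and Mrpl42 on the minus strand (chr10:95501950-95502199). Capitals mark CCGGAAG, a motif of ETS factors such as GABP, and GCATGCGC, the core of the motif of NRF1, on either strand. Both factors are known regulators of nuclear genes for mitochondrial proteins.
Mrpl27: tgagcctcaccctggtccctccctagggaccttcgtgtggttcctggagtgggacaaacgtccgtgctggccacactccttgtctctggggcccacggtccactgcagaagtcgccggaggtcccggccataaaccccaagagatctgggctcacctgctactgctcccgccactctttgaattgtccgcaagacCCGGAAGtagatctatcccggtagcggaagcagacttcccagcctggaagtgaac
Mrpl17: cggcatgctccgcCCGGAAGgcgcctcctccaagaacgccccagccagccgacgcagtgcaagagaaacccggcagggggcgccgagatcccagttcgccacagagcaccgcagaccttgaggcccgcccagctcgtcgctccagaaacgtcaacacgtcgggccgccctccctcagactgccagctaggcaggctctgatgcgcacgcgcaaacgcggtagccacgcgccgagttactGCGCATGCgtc
Mrpl42: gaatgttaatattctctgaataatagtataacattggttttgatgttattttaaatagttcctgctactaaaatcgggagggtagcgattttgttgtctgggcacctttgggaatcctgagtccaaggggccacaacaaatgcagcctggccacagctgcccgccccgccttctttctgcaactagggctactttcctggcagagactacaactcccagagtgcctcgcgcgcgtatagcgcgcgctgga
Mrpl27 holds the ETS letters once, close to the start, and Mrpl17 holds both, the NRF1 core close to the start. Mrpl42 holds neither in these 250 bases.

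Over the family, 65 of the 73 measured genes matched the RefSeq table, with 71 promoters of 300 bases (250 before the start and 50 after it). CCGGAAG was in 33.8% of them, against 16.6% of the promoters of genes measured on the array and 8.86% of all promoters. The NRF1 core was in 11.3%, against 4.94% and 2.71%. The longer NRF1 consensus, which allows C or T at a place where the core has T, was in 7.04%, against 2.77% and 1.27%. A promoter can thus hold the longer consensus without the core. The match of Mrpl17 to the longer consensus is left in small letters above. AAGATGG, the core of the YY1 motif, was in 16.9%, against 7.01% and 6.34%. The NF-kB consensus was in 7.04%, against 10.5% and 8.46%, and the interferon response consensus in 0 of 71, against 0.246% and 0.17%. All motifs were searched on both strands, and a match describes these letters only. The median GC content was 58.7% in the member promoters, 60.3% in those of genes measured on the array and 52.7% in all.

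The starts of Mrpl46 and Mrps11, a large-subunit and a small-subunit gene, face away from each other on chromosome 7, 42 bases apart. The 41 bases between them (GRCm38.p6, chr7:78783090-78783130, plus strand, the strand of Mrps11) are shown because both genes start at their edges.
Mrpl46 and Mrps11: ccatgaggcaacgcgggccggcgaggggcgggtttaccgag
Mrpl46 had signals of 167 with AdIkBa-SR+TNFa, 179 with AdIkBa-SR, 69.9 with AdOVA+TNFa, 151 with AdOVA, 123 with TNFa and 198 untreated. Mrps11 had 108 with AdIkBa-SR+TNFa, 103 with AdIkBa-SR, 74.9 with AdOVA+TNFa, 99.5 with AdOVA, 117 with TNFa and 130 untreated. Both genes were lowest on the AdOVA+TNFa array and highest on the untreated array, and neither was called in any comparison.

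With the control virus, 10 member probe sets fell and 0 rose at limma's adjusted threshold. Mrpl42, Mrpl23, Mrpl12, Mrpl2 and Mrpl57 of the large subunit and Mrps14 of the small subunit fell on the brightest probe set of the gene, by 0.90 to 1.57 on the log2 scale. Across all measured probe sets 3.86% fell and 4.03% rose, so the share of members that fell, 9.17%, was above that share. At an unadjusted limma p under 0.05, 26 members were lower, against 11.1% of all, and 2 higher, against 12.4%. Most members shifted less than a call needs: 68 of 109 were lower in both pairs that share no array (with AdOVA against untreated cells, and with AdOVA+TNFa against TNFa), against 28% of all probe sets, and 11 were higher in both, against 35.2%. For 44 members both AdOVA readings lay below both readings without virus, against 20.4% of all. The median log2 difference of the members was -0.30 for AdOVA over untreated and -0.36 for AdOVA+TNFa over TNFa, where all probe sets had 0.01 and 0.07. In such bulk samples, fewer cells of a type and less RNA per cell cannot be told apart.

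Mrpl42, a large-subunit protein without a bacterial counterpart, had signals of 296 with AdOVA against 571 untreated, and 95.04 with AdOVA+TNFa against 435 with TNFa. Both AdOVA readings were below both readings without virus (fitted log2 -1.57, SE 0.30, limma adjusted p = 0.00327). Mrpl12, which forms the stalk that binds translation factors, read 66.4 with AdOVA against 216 untreated, and 85.7 with AdOVA+TNFa against 147 with TNFa. The groups did not overlap either, and the AdOVA value without TNFa was the lower of the pair (fitted log2 -1.24, SE 0.34, limma adjusted p = 0.0323).

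Mrpl23, at the exit of the peptide tunnel, had signals of 81.5 with AdOVA against 306 untreated, and 125 with AdOVA+TNFa against 179 with TNFa (fitted log2 -1.22, SE 0.35, limma adjusted p = 0.0402). Mrpl2, next to the catalytic centre, read 168 with AdOVA against 322 untreated, and 149 with AdOVA+TNFa against 353 with TNFa (fitted log2 -1.09, SE 0.28, limma adjusted p = 0.022). For both genes the AdOVA arrays lay below the arrays without virus. Mrpl57, found in mitochondrial but not bacterial ribosomes, read 284 with AdOVA against 457 untreated, and 130 with AdOVA+TNFa against 321 with TNFa, again without overlap (fitted log2 -0.998, SE 0.28, limma adjusted p = 0.0327).

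Mrps14, in the head of the small subunit, was among the brightest members and read 520 with AdOVA against 913 untreated, and 269 with AdOVA+TNFa against 534 with TNFa. Here the AdOVA value without TNFa was close to the TNFa value without virus, and both AdOVA readings were still below both readings without virus (fitted log2 -0.90, SE 0.24, limma adjusted p = 0.0275).

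The other calls were on dimmer probe sets of Mrpl15, Mrpl19, Mrpl41 and Mrpl11, whose remaining measured probe sets were not called. Mrpl15 read 32.8 with AdOVA against 119 untreated, and 12.3 with AdOVA+TNFa against 169 with TNFa (fitted log2 -1.41, SE 0.32, limma adjusted p = 0.0106), but its brightest probe set read 218 with AdOVA against 284 untreated, and 172 with AdOVA+TNFa against 171 with TNFa (fitted log2 -0.19, SE 0.30, limma adjusted p = 0.756). Mrpl19 read 27.8 with AdOVA against 120 untreated, and 52.8 with AdOVA+TNFa against 130 with TNFa on the called probe set (fitted log2 -1.23, SE 0.28, limma adjusted p = 0.0109). On these probe sets of Mrpl15 and Mrpl19 both AdOVA readings were under the floor, so the fitted values stand at the floor there.

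Mrpl41 read 214 with AdOVA against 407 untreated, and 114 with AdOVA+TNFa against 294 with TNFa (fitted log2 -1.15, SE 0.28, limma adjusted p = 0.0187). Mrpl11, at the base of the stalk, read 84.3 with AdOVA against 182 untreated, and 40.9 with AdOVA+TNFa against 157 with TNFa (fitted log2 -1.33, SE 0.33, limma adjusted p = 0.0185). The AdOVA+TNFa reading of this Mrpl11 probe set was under the floor. A further Mrpl11 probe set differed in sign, with 157 with AdOVA against 106 untreated, and 123 with AdOVA+TNFa against 117 with TNFa.

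Of the members higher with AdOVA in both pairs with all 4 arrays above the floor, none was called. Mrpl17, a large-subunit protein, had 252 with AdOVA against 189 untreated, and 236 with AdOVA+TNFa against 128 with TNFa (fitted log2 0.64, SE 0.30, limma adjusted p = 0.202). Mrps18c, a small-subunit protein of a family of paralogs, had 509 with AdOVA against 412 untreated, and 328 with AdOVA+TNFa against 237 with TNFa (fitted log2 0.38, SE 0.26, limma adjusted p = 0.387). Mrps9, Mrpl10, Mrps7 and Mrpl43 had fitted log2 values of 0.06 to 0.33. The 4 measured probe sets of Mrps9 differed in sign, with fitted values from -0.50 to 0.43. On the lower side, Mrpl33, a large-subunit protein, missed the threshold with 124 with AdOVA against 195 untreated, and 72.6 with AdOVA+TNFa against 133 with TNFa (fitted log2 -0.76, SE 0.33, limma adjusted p = 0.164).

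A fit with 1 TNFa response for all 3 virus states (additive) called 2 of the 109 members lower with all arrays, against 1.19% of all probe sets. The additive fit called 0 members and 0 of all probe sets without the AdOVA+TNFa array, where the fit used above would have no residual degree of freedom, and also 0 of each with the fluidics round as a block. The member median was -0.23 in both of these fits, against 0.02 for all. Only the AdOVA+TNFa array separates the round from virus and TNFa in the additive fit. For this comparison both fits therefore give the same result, and neither tests the round apart from that array. Under quantile normalization 0 members were called, against 0.733% of all probe sets called lower, with a member median of -0.35.

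**Figure D2:**
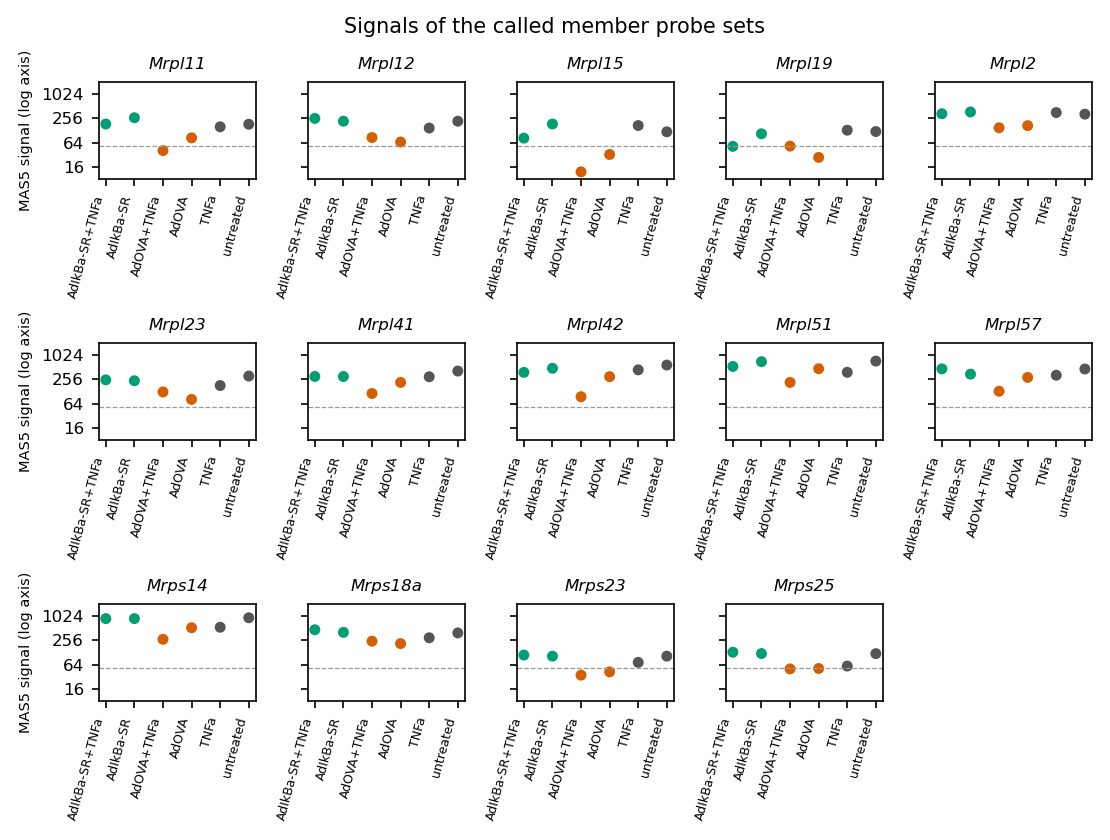
MAS5 signal (log axis) of the 14 member probe sets called in any comparison, 1 panel per gene and 1 point per array. Green marks AdIkBa-SR arrays, orange AdOVA arrays and grey arrays without virus, and the dashed line is the floor of 53.5. In most panels the orange points lie below the green and grey ones. The panels were chosen by calls that set the AdOVA arrays against the others, so low orange points follow from that choice.

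With the super-repressor virus in place of AdOVA, 12 member probe sets rose and 0 fell, against 3.47% and 3.39% of all probe sets. At an unadjusted limma p under 0.05, 26 members were higher, against 10.2% of all, and 0 lower, against 12.7%. Of the 12 that rose, 9 were the brightest probe set of the gene, those of Mrps14, Mrpl12, Mrpl42, Mrpl2, Mrps25, Mrpl51, Mrpl57, Mrpl23 and Mrps18a. In both pairs, without and with TNFa, 65 of 109 members were higher, against 25.8% of all, and 7 were lower, against 38.9%. For 48 members both AdIkBa-SR readings lay above both AdOVA readings, against 18% of all. The median log2 difference of the members was 0.21 without TNFa and 0.52 with TNFa, where all probe sets had -0.03 and -0.12. This comparison and that of AdOVA with no virus use the same 2 AdOVA arrays, so a member that reads low on them moves in both.

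Mrpl12 had signals of 216 with AdIkBa-SR against 66.4 with AdOVA, and 253 with AdIkBa-SR+TNFa against 85.7 with AdOVA+TNFa (fitted log2 1.63, SE 0.34, limma adjusted p = 0.00735). Mrpl42 had 475 with AdIkBa-SR against 296 with AdOVA, and 377 with AdIkBa-SR+TNFa against 95.04 with AdOVA+TNFa (fitted log2 1.34, SE 0.30, limma adjusted p = 0.0117). For both genes the AdIkBa-SR arrays were above both AdOVA arrays. Mrps14 had 872 with AdIkBa-SR against 520 with AdOVA, and 872 with AdIkBa-SR+TNFa against 269 with AdOVA+TNFa (fitted log2 1.22, SE 0.24, limma adjusted p = 0.0048), so its difference was larger with TNFa than without.

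Mrpl2 had 365 with AdIkBa-SR against 168 with AdOVA, and 330 with AdIkBa-SR+TNFa against 149 with AdOVA+TNFa (fitted log2 1.13, SE 0.28, limma adjusted p = 0.0194). Mrpl23 had 235 with AdIkBa-SR against 81.5 with AdOVA, and 247 with AdIkBa-SR+TNFa against 125 with AdOVA+TNFa (fitted log2 1.26, SE 0.35, limma adjusted p = 0.0368). Mrpl57 had 341 with AdIkBa-SR against 284 with AdOVA, and 461 with AdIkBa-SR+TNFa against 130 with AdOVA+TNFa (fitted log2 1.05, SE 0.28, limma adjusted p = 0.0277). None of these 3 genes had an AdOVA reading above an AdIkBa-SR reading.

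Mrps25, a small-subunit protein without a bacterial counterpart, had 120 with AdIkBa-SR against 51.6 with AdOVA, and 130 with AdIkBa-SR+TNFa against 50.5 with AdOVA+TNFa (fitted log2 1.22, SE 0.31, limma adjusted p = 0.0216). Both of its AdOVA readings were under the floor. Mrpl51, a large-subunit protein without a bacterial counterpart, had 691 with AdIkBa-SR against 464 with AdOVA, and 528 with AdIkBa-SR+TNFa against 213 with AdOVA+TNFa (fitted log2 0.94, SE 0.25, limma adjusted p = 0.0276). Mrps18a, which sits in the large subunit despite its symbol, had 400 with AdIkBa-SR against 211 with AdOVA, and 463 with AdIkBa-SR+TNFa against 243 with AdOVA+TNFa (fitted log2 0.93, SE 0.27, limma adjusted p = 0.047). In these 3 genes the AdIkBa-SR arrays were higher in both pairs.

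The remaining calls were on dimmer probe sets of Mrpl11, Mrpl15 and Mrps23. The Mrpl11 probe set read 263 with AdIkBa-SR against 84.3 with AdOVA, and 184 with AdIkBa-SR+TNFa against 40.9 with AdOVA+TNFa (fitted log2 1.71, SE 0.33, limma adjusted p = 0.0042). That of Mrpl15 read 184 with AdIkBa-SR against 32.8 with AdOVA, and 82.9 with AdIkBa-SR+TNFa against 12.3 with AdOVA+TNFa (fitted log2 1.21, SE 0.32, limma adjusted p = 0.0268). That of Mrps23 read 104 with AdIkBa-SR against 42.6 with AdOVA, and 111 with AdIkBa-SR+TNFa against 35.5 with AdOVA+TNFa (fitted log2 1.002, SE 0.28, limma adjusted p = 0.039), and both of its AdOVA readings were under the floor. Both AdOVA readings of the Mrpl15 probe set and the AdOVA+TNFa reading of the Mrpl11 probe set were also under the floor. The lowest fitted value among the Mrpl11 probe sets was -0.01.

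Mrps9, in the head of the small subunit, went the other way without passing the test, with 115 with AdIkBa-SR against 175 with AdOVA, and 96.5 with AdIkBa-SR+TNFa against 152 with AdOVA+TNFa (fitted log2 -0.63, SE 0.33, limma adjusted p = 0.264). These values are of the brightest of 4 measured Mrps9 probe sets, which differed in sign, with fitted values from -0.63 to 0.07. Mrps7 had a fitted log2 value of -0.08. Mrps15, a small-subunit protein, was higher in both pairs without being called, with 186 with AdIkBa-SR against 103 with AdOVA, and 194 with AdIkBa-SR+TNFa against 107 with AdOVA+TNFa (fitted log2 0.85, SE 0.32, limma adjusted p = 0.123). Both AdIkBa-SR arrays were in round 2, while the AdOVA arrays were split over the rounds. In additive fits, 2 members were called higher with all arrays, against 0.886% of all probe sets, 7 without the AdIkBa-SR array, against 2.37%, and 0 members and 0 of all probe sets both without the AdOVA+TNFa array and with the round as a block. The member median was 0.26 without the AdOVA+TNFa array, where that of all probe sets was -0.04, and 0.47 with the round as a block, where that of all was -0.12. In the block fit the round term again rests on the AdOVA+TNFa array alone. Quantile normalization left 1 call, against 0.383% of all probe sets, with a member median of 0.39.

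Between the super-repressor virus and no virus, 0 members were called in either direction, against 0.0335% of all probe sets higher and 0% lower. Unadjusted limma p-values under 0.05 were found for 3 members higher, against 2.89% of all probe sets, and 1 lower, against 2.58%. The median log2 difference of the members was -0.05 for AdIkBa-SR over untreated and 0.14 for AdIkBa-SR+TNFa over TNFa, and 26 members were higher in both pairs, against 19.3% of all, while 22 were lower in both, against 24.9%. The intervals are wide: the typical 95% interval of a member reached 0.62 to either side on the log2 scale. For Mrpl42 the fitted value was -0.24 (95% interval -0.86 to 0.39), for Mrpl12 0.39 (-0.32 to 1.11) and for Mrps14 0.32 (-0.18 to 0.82). The interval excluded 0 for the dimmer Mrpl19 probe set, at -0.73 (-1.32 to -0.15), without passing the adjusted threshold (limma adjusted p = 0.8). Among genes read from their brightest probe set with these 4 arrays above the floor, Mrpl45 ranked first upward by the smaller of its 2 pair differences, with 530 with AdIkBa-SR against 442 untreated, and 567 with AdIkBa-SR+TNFa against 439 with TNFa (fitted log2 0.32, SE 0.25, limma adjusted p = 0.993). Mrps9 ranked first downward by the same measure. It had 115 with AdIkBa-SR against 141 untreated, and 96.5 with AdIkBa-SR+TNFa against 126 with TNFa (fitted log2 -0.34, SE 0.33, limma adjusted p = 0.997). Its 4 measured probe sets differed in sign here too, with fitted values from -0.43 to 0.10. Mrpl17 had a larger fitted value than Mrpl45, with 211 with AdIkBa-SR against 189 untreated, and 309 with AdIkBa-SR+TNFa against 128 with TNFa (fitted log2 0.71, SE 0.30, limma adjusted p = 0.863). The intervals do not show that super-repressor cells and cells without virus were alike.

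**Figure D3:**
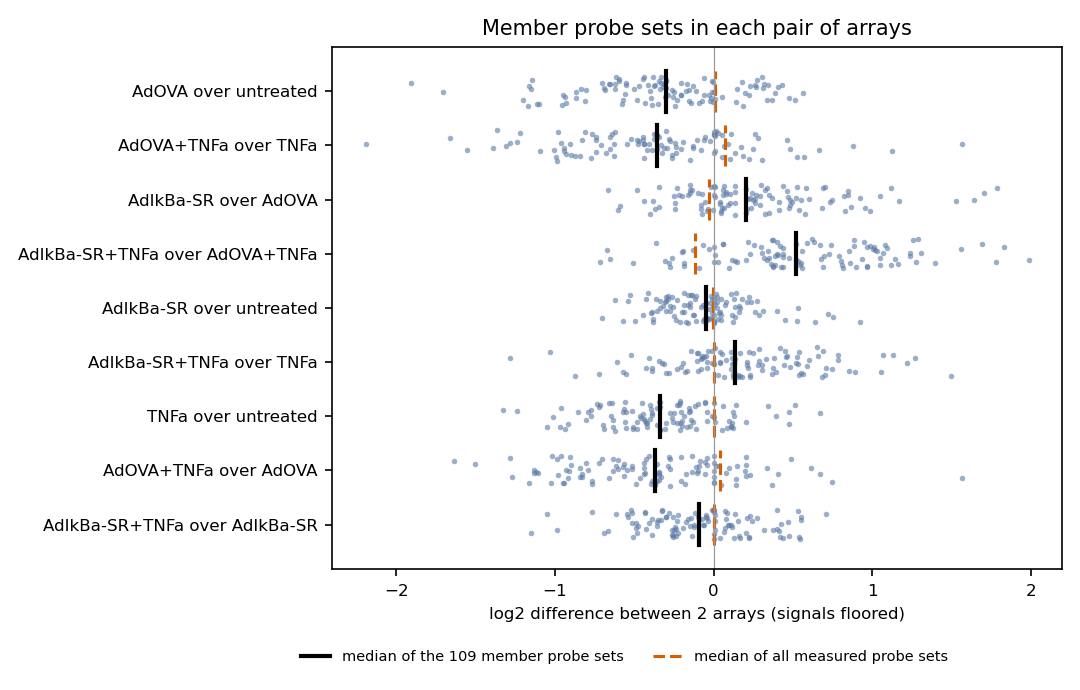
Log2 difference (horizontal axis, signals floored at 53.5) of each of the 109 member probe sets in 9 pairs of single arrays (rows). Points are probe sets, black bars the member median and dashed orange bars the median of all 14906 measured probe sets. The black bar lies left of the orange one in both AdOVA rows and right of it in both rows of AdIkBa-SR over AdOVA.

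With TNFa, 0 members were called by limma in cells without virus and with AdOVA, where 0.0268% of all probe sets were called higher and 0% lower. At an unadjusted limma p under 0.05, 23 members were lower and 0 higher, against 5.84% and 5.25% of all probe sets. In both pairs, without virus and with AdOVA, 67 members were lower, against 23.5% of all, and 3 were higher, against 29.5%. For 42 members both readings with TNFa lay below both without it, against 13% of all. The median log2 difference of the members was -0.34 without virus and -0.37 with AdOVA, where all probe sets had 0.00 and 0.04. When only probe sets above the floor on all 6 arrays were fitted, 5 of 90 members were called lower, against 1.64% of the 11005 probe sets in that fit.

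Mrpl22, at the peptide tunnel, had signals of 190 with TNFa against 364 untreated, and 148 with AdOVA+TNFa against 360 with AdOVA (fitted log2 -1.11, SE 0.28, limma adjusted p = 0.153). Mrpl51 had 379 with TNFa against 715 untreated, and 213 with AdOVA+TNFa against 464 with AdOVA (fitted log2 -1.02, SE 0.25, limma adjusted p = 0.145). Both were lower on both arrays with TNFa than on both arrays without it. Mrps14 had 534 with TNFa against 913 untreated, and 269 with AdOVA+TNFa against 520 with AdOVA (fitted log2 -0.86, SE 0.24, limma adjusted p = 0.163), and here the groups overlapped, since the TNFa reading was above the AdOVA one.

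Mrps36, which has since been assigned to the oxoglutarate dehydrogenase complex of the citric acid cycle, had 313 with TNFa against 516 untreated, and 231 with AdOVA+TNFa against 431 with AdOVA (fitted log2 -0.81, SE 0.26, limma adjusted p = 0.199). Mrpl46 and Mrpl35, both of the large subunit, had fitted log2 values of -0.90 and -0.81.

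In AdIkBa-SR cells, TNFa gave 0 calls among the members and 0% of all probe sets in either direction. The median log2 difference of the members was -0.09, and 64 of 109 were lower, against 47.7% of all, and 43 higher, against 45.5%. At an unadjusted limma p under 0.05, 3 members were lower, against 1.73% of all, and 0 higher, against 3.37%. Mrpl4, a large-subunit protein, had 362 with AdIkBa-SR+TNFa against 222 with AdIkBa-SR, and Mrpl48, also of the large subunit, 169 with AdIkBa-SR+TNFa against 288 with AdIkBa-SR. Mrps14 had 872 with AdIkBa-SR+TNFa against 872 with AdIkBa-SR. The test of the difference between the TNFa response in AdIkBa-SR cells and that in the other cells called 0 of 14906 probe sets, with 9 members at an unadjusted limma p under 0.05 and a lowest member adjusted p of 0.972, so a difference in response was not detectable with these arrays.

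By subunit, with each gene read from its brightest probe set, the large subunit had 48 measured genes and the small subunit 24. The median fitted AdOVA difference was -0.55 in the large subunit, with 39 genes lower and 5 called, and -0.28 in the small subunit, with 20 genes lower and 1 called. Over all 8934 measured genes read this way, the median was 0.07, with 43.8% lower and 3.45% called lower. For AdIkBa-SR over AdOVA the medians were 0.51 and 0.28, with 7 and 2 genes called higher, where all genes had a median of -0.10 and 3.13% called higher. For TNFa without virus and with AdOVA they were -0.47 and -0.27, with 45 of 48 and 23 of 24 genes lower and 0 called, where all genes had a median of 0.02 and 47.4% lower. The difference between the subunits was not tested. In the large subunit, the 28 genes with a bacterial counterpart had a median AdOVA difference of -0.50 and the 20 without one -0.55. In the small subunit, the 15 with a counterpart had -0.23 and the 9 without one -0.31.

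Genes with the ETS letters in their promoter had a median fitted AdOVA difference of -0.37 (24 genes), against -0.44 for the 41 without. For AdIkBa-SR over AdOVA the genes with the letters had 0.46, against 0.35, and for TNFa without virus and with AdOVA -0.49, against -0.28. The 8 genes with the NRF1 core had an AdOVA median of -0.19, against -0.45 for the 57 without, with 0.42, against 0.35, for AdIkBa-SR over AdOVA and -0.31, against -0.45, for TNFa. The 57 genes without the core include Mrpl44 and Mrpl45, which hold the longer NRF1 consensus (fitted AdOVA log2 0.11 for each). None of these differences was tested. Of the 6 genes called lower with AdOVA on the brightest probe set, Mrpl57 had the ETS letters, Mrpl42 the YY1 core, and the others none of the motifs searched.

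Of 26 genes read by more than 1 measured probe set, 10 had probe sets that differed in sign for AdOVA over no virus, 9 for AdIkBa-SR over AdOVA and 9 for TNFa without virus and with AdOVA. Mrpl52, a large-subunit protein, had 371 with AdOVA against 472 untreated, and 410 with AdOVA+TNFa against 188 with TNFa on its brightest probe set (fitted log2 0.39) and 237 with AdOVA against 324 untreated, and 133 with AdOVA+TNFa against 156 with TNFa on another (fitted log2 -0.34). Mrps14 and Mrpl57 each had another, dimmer probe set of the same sign that was not called. With genes read as the mean of their probe sets, 2 of 73 fell with AdOVA, against 1.44% of all genes, and 2 rose with AdIkBa-SR over AdOVA, against 1.46%.

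Other components of the mitochondrial ribosome carry symbols outside the rule. Chchd1, a small-subunit protein, had signals of 402 with AdIkBa-SR+TNFa, 507 with AdIkBa-SR, 112 with AdOVA+TNFa, 334 with AdOVA, 336 with TNFa and 506 untreated, and it fell with AdOVA (fitted log2 -1.09, SE 0.29, limma adjusted p = 0.0247) and rose with AdIkBa-SR over AdOVA (fitted log2 1.23, SE 0.29, limma adjusted p = 0.0145). Ptcd3, a small-subunit protein with RNA-binding repeats, had 113 with AdIkBa-SR+TNFa, 156 with AdIkBa-SR, 86.9 with AdOVA+TNFa, 77.8 with AdOVA, 231 with TNFa and 170 untreated, and it fell with AdOVA (fitted log2 -1.27, SE 0.33, limma adjusted p = 0.0232). Dap3, a GTP-binding small-subunit protein also linked to cell death, had 342 with AdOVA against 263 untreated, and 359 with AdOVA+TNFa against 276 with TNFa and was not called (fitted log2 0.38, SE 0.27, limma adjusted p = 0.419).

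Of all 8934 measured genes, 3.45% were called lower and 4.11% higher with AdOVA, which is the background of the list counts below. Among genes that serve the ribosome, 0 of 8 measured translation factors were called with AdOVA. The same held for 0 of 16 measured genes of ribosome assembly and RNA modification. The median fitted log2 values of these lists were 0.10 and 0.04. Of 9 mitochondrial aminoacyl-tRNA synthetases and related enzymes, 1 fell, Qrsl1, which makes glutamine-charged tRNA (fitted log2 -1.43, SE 0.31, limma adjusted p = 0.00707). It read 39.96 with AdOVA against 140 untreated, and 41.7 with AdOVA+TNFa against 149 with TNFa, under the floor on both AdOVA arrays. Of 13 genes of mitochondrial DNA and RNA synthesis, 2 fell: Hsd17b10, a subunit of mitochondrial RNase P, which read 102 with AdOVA against 303 untreated, and 16.2 with AdOVA+TNFa against 268 with TNFa (fitted log2 -1.95, SE 0.33, limma adjusted p = 0.00122), and Ssbp1, which coats single-stranded mitochondrial DNA and read 335 with AdOVA against 545 untreated, and 141 with AdOVA+TNFa against 344 with TNFa (fitted log2 -0.99, SE 0.27, limma adjusted p = 0.0287). Both rose with AdIkBa-SR over AdOVA, against 3.13% of all measured genes.

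Of 8 measured transcription regulators of mitochondrial genes, 1 fell with AdOVA, against 3.45% of all measured genes. This was Myc, a driver of growth, with 61.7 with AdOVA against 126 untreated, and 42.4 with AdOVA+TNFa against 127 with TNFa (fitted log2 -1.14, SE 0.31, limma adjusted p = 0.0304), and it rose with AdIkBa-SR over AdOVA (fitted log2 1.12, SE 0.31, limma adjusted p = 0.0357). Nrf1 had 244 with AdOVA against 248 untreated, and 289 with AdOVA+TNFa against 222 with TNFa, and Gabpa, the DNA-binding subunit of GABP, had 133 with AdOVA against 90.5 untreated, and 123 with AdOVA+TNFa against 139 with TNFa. Neither was called, with limma adjusted p-values of 0.76 and 0.776.

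In the fitted comparisons given here, the families nearest in function had larger median differences of the same sign. Cytosolic ribosomal proteins (82 measured probe sets) had a median fitted AdOVA difference of -0.63 and subunits of the respiratory chain and ATP synthase (137) of -0.61, against -0.34 for the mitochondrial ribosomal proteins. For AdIkBa-SR over AdOVA the medians were 0.70, 0.71 and 0.34 in the same order of families, and for TNFa without virus and with AdOVA they were -0.70, -0.69 and -0.35. In the single pairs of AdIkBa-SR over AdOVA they were 0.21, 0.30 and 0.21 without TNFa, and 1.175, 1.06 and 0.52 with TNFa. The larger values in this comparison thus came mainly from the pair with the AdOVA+TNFa array. With AdOVA, 20.7% of the cytosolic ribosomal and 19.7% of the respiratory chain probe sets were called lower. These values stand side by side, and the differences between the families were not tested.

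**Figure D4:**
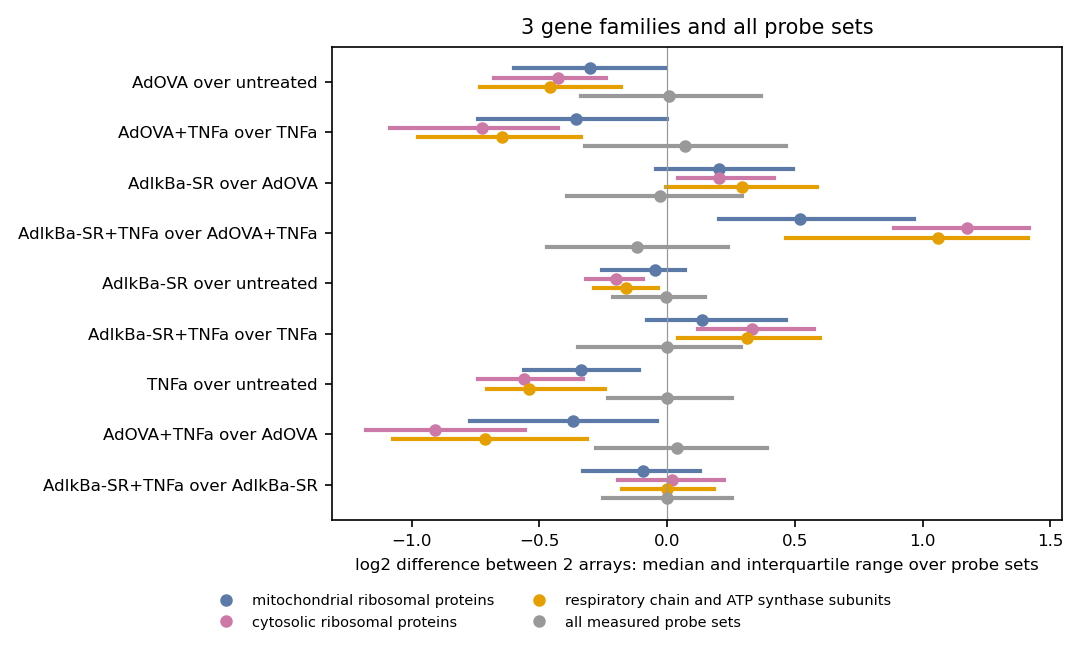
Median (point) and interquartile range (line) of the log2 difference over the probe sets of 3 gene families and over all measured probe sets, in 9 pairs of single arrays (rows). The cytosolic ribosomal and respiratory chain families lie further from 0 than the mitochondrial ribosomal proteins in both AdOVA rows and both TNFa rows without the super-repressor.

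The summed signal of 9 granulocyte markers was lowest on the AdOVA+TNFa array, like the member median. Unlike that median, it was highest on the AdIkBa-SR+TNFa array. It was 34046 with AdIkBa-SR+TNFa, 33219 with AdIkBa-SR, 14822 with AdOVA+TNFa, 23556 with AdOVA, 22174 with TNFa and 28672 untreated. Of these markers 7 to 9 were above the floor on each array. With AdOVA 0 of them were called lower, and with AdIkBa-SR over AdOVA 3 were called higher, against 3.45% and 3.13% of all measured genes. The summed signal of 5 mast cell and basophil markers was 1685 with AdIkBa-SR+TNFa, 1747 with AdIkBa-SR, 1101 with AdOVA+TNFa, 1055 with AdOVA, 1252 with TNFa and 1465 untreated, with 4 or 5 of them above the floor on each array. Of these 5, 1 fell with AdOVA and 2 rose with AdIkBa-SR over AdOVA, against 3.45% and 3.13% of all measured genes. The summed signal of the macrophage markers was higher with AdOVA. It was 22700 with AdOVA against 14698 untreated, and 20155 with AdOVA+TNFa against 15444 with TNFa. With AdIkBa-SR it was 17498.5, and with AdIkBa-SR+TNFa 17783. Single macrophage markers were split: 3 of the 5 measured had a fitted AdOVA value below 0, with a median log2 of -0.06. Only 1 was called higher with AdOVA and 0 lower, against 4.11% and 3.45% of all measured genes. The part of these marker groups in the member differences was not tested. The part of the round, the wash protocol and the 18S signal was not tested beyond the fits named. Within round 1, the member median was -0.30 for AdOVA over untreated, where all probe sets had 0.01. Within round 2 it was 0.52 for AdIkBa-SR+TNFa over AdOVA+TNFa, where all had -0.12. The round 2 pair includes the array with the high 18S signal, and both are single pairs of arrays, which carry no test. Of 13 measured proliferation genes, 3 fell with AdOVA, against 3.45% of all measured genes. Of 11 interferon-stimulated genes, 10 rose, against 4.11% of all.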

How the data were processed

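Total RNA (8 ug) of 6 samples was labelled and hybridized to 6 Affymetrix MOE430A arrays, and groups were taken from the sample titles. Per the submitters' processing notes the authors used MAS5 (version not given in the sources used here) and deposited its linear signal intensity, 1 value per probe set. The 2% trimmed mean was 200.1 on every array, so signals were not rescaled. Symbols came from the platform annotation, and probe sets with several symbols were left out. Signals under 53.5 were set to this floor and log2 values taken, which compresses differences of dim probe sets. Limma 3.58.1 (lmFit, eBayes with trend, R 4.3.3) was fitted to 14906 probe sets with 5 coefficients: 3 virus states, a common TNFa response of virus-free and AdOVA cells, and another in AdIkBa-SR cells. Calls are Benjamini-Hochberg adjusted p-values under 0.05 over all measured probe sets. In simulated data for AdOVA over no virus, 200 of 14906 probe sets were changed, all with a mean log2 signal over the median. The fit found 0 changes of 1.5-fold, 48 of 2-fold and 198 of 4-fold, with 1, 9 and 16 false calls. Precision is limited by the number of arrays.

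The members and lists were chosen with earlier results of these data known. Values are given for called members, for up to 6 members per direction with the largest smaller difference of both pairs and all 4 arrays above the floor, for the 5 brightest, and for genes whose probe sets differ in sign; the text gives a selection of these. Where genes are counted, the probe set with the highest mean log2 signal stands for its gene.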

Additional observations from a re-analysis of the deposited data

How the results depend on the processing

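The calls depended on the processing, while the sign of the median fitted difference of the members in each of the 5 comparisons was the same under every alternative run. Against 10 members called lower with AdOVA over no virus, quantile normalization, no filter on dim probe sets, an additive fit with the fluidics round as a block and an additive fit without the AdOVA+TNFa array gave 0 each, and reading genes as the mean of their probe sets and the additive fit of all arrays gave 2 each. Against 12 members called higher with AdIkBa-SR over AdOVA, no filter, the round block and leaving out the AdOVA+TNFa array gave 0 each, quantile normalization 1, gene means and the additive fit 2 each, and leaving out the AdIkBa-SR array 7. Of all probe sets, quantile normalization called 0.733% lower with AdOVA and 0.383% higher with AdIkBa-SR over AdOVA. No filter and the round block called 0% in both comparisons, so their 0 counts are not particular to the members. The additive fit of all arrays called 1.19% and 0.886%, and gene means 1.44% and 1.46% of all 8934 genes. Gene means count 73 member genes, not 109 probe sets. Members lower in both pairs numbered 7 for AdIkBa-SR over AdOVA, against 38.9% of all probe sets. They numbered 4 with equal medians, 4 with quantile normalization and 3 of 73 with gene means. For AdIkBa-SR over no virus they numbered 22 of 109, against 24.9% of all, and 12 of 73 with gene means. The shares of all probe sets or genes under these alternatives are not given here. The counts therefore do not show a change particular to the members. For TNFa without virus and with AdOVA, 0 members were called lower, and 5 when only probe sets above the floor on all 6 arrays were fitted. The fits with an array left out or the round as a block are additive, so their counts stand beside the 2 of the additive fit of all arrays. For AdOVA over no virus, the round block and leaving out the AdOVA+TNFa array amount to the same fit and are not separate checks. The cause of these changes was not tested. Equal medians moved the median of all probe sets for AdOVA over no virus to -0.08, against 0.06, and the member median minus that of all stayed at -0.41, against -0.39. Among all probe sets, 600 were called higher and 575 lower with AdOVA, against 236 and 419 with equal medians. The additive fits give no separate TNFa response in AdIkBa-SR cells. No paired analysis was possible because each group has 1 array and the labels give no shared replicate numbers. The self-test found 48 of 200 simulated 2-fold changes, all set in brighter probe sets, so many differences near that size may be missed. It changed fewer probe sets than were called here, so it does not set the smallest difference these arrays can call. Some members called here differed by less than 2-fold, such as Mrps14 at a fitted log2 of -0.90 with AdOVA.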
